A study of Mus musculus with 2 samples.

Results

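The genes described here are Spp1 (osteopontin), Gpnmb, Lgals3, Lgals1, Apoe, Lpl, Fabp4, Fabp5, Plin2 and Fn1, which macrophages that take up and store lipid are known for. They were taken by name, as 10 of the 15169 genes of the GENCODE vM21 annotation that had or lay in an assembled locus. In M and in MR each of the 10 was covered by at least 1 locus assigned to it alone. The RNA came from wild-type mouse bone marrow cells in culture. In the M culture the cells received macrophage colony-stimulating factor (M-CSF, 20 ng/mL) alone. In the MR culture they received M-CSF at 20 ng/mL for 2 days and then M-CSF at 20 ng/mL together with receptor activator of NF-κB ligand (RANKL, 100 ng/mL), for 2 days by the library labels and 3 days by the culture method, and the day of harvest is not named. M-CSF keeps macrophages and their precursors alive, and RANKL turns them into osteoclasts, the cells that resorb bone. Each condition had 1 library, so no difference below has a replicate check, and the number of mice is not given in the sources used here.

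These genes belong to a few kinds. Osteopontin and fibronectin (Fn1) are secreted matrix proteins with an RGD motif that integrins bind, and osteoclasts attach to bone through osteopontin. Gpnmb is a membrane glycoprotein of endosomes and lysosomes, also called osteoactivin. Galectin-3 (Lgals3) and galectin-1 (Lgals1) bind sugars on glycoproteins. Apolipoprotein E (Apoe) carries lipid out of macrophages, lipoprotein lipase (Lpl) frees fatty acids from lipoproteins, Fabp4 and Fabp5 carry fatty acids in the cytosol, and perilipin 2 (Plin2) coats lipid droplets.

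The sequence upstream of the start is shown for the 4 genes with the highest levels among the 5 that matched a RefSeq promoter (GRCm38.p6), because the ends of their assembled loci could be set against it. RefSeq holds 2 starts for Spp1 and 3 for Apoe, and the one nearest to the 5′ ends of the assembled loci is shown. Each run is the 250 bases before that start, 5′ to 3′ on the strand of the gene. They are chr5:104434861-104435110 (plus strand) for Spp1, chr6:49036268-49036517 (plus) for Gpnmb, chr14:47373610-47373859 (plus) for Lgals3 and chr7:19699189-19699438 (minus) for Apoe. Capitals mark the searched motifs.
Spp1: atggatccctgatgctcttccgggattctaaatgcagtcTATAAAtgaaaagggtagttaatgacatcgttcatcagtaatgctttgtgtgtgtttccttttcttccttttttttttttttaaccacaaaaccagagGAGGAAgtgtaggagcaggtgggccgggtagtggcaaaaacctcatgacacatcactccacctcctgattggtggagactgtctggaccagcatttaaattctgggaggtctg
Gpnmb: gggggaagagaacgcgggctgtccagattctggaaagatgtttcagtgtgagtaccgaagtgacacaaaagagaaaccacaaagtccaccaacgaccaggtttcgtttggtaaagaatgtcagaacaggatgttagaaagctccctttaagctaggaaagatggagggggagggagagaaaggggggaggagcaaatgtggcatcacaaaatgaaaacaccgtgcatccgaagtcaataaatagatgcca
Lgals3: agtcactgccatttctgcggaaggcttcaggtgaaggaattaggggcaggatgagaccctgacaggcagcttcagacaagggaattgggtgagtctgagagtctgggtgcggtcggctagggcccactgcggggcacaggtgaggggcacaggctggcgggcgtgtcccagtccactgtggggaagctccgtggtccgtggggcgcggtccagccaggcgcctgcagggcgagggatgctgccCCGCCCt
Apoe: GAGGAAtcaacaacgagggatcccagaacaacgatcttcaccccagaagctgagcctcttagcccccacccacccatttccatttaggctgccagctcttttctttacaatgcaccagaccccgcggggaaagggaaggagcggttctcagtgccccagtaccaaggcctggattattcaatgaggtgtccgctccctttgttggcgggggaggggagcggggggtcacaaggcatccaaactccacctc
The letters searched on both strands were TATAAA (a box bound by the general transcription machinery), GAGGAA (core of the sites of PU.1, the macrophage lineage factor), GGGCGG (a GC-rich box), the E-box CATGTG (bound by MITF and its relatives), the E-box CACGTG (bound by the same family) and TGANTCA (bound by AP-1). TATAAA stood in the Spp1 window, and 12.4% of all 32851 promoters hold it upstream. GAGGAA stood in those of Spp1 and Apoe (23.3% of all promoters), and GGGCGG on the opposite strand in that of Lgals3 (32.7%). Of the windows at the other starts of Apoe, not shown, 1 held TATAAA and 1 held GAGGAA. Neither E-box nor the AP-1 letters were in any of the 8 windows of the 5 genes. CATGTG is in 12.3% of all promoters, the other E-box in 6.02% and the AP-1 letters in 6.75%. The assembled Spp1 locus began 1 base before the RefSeq start in M and 14 bases before it in MR. The Gpnmb locus began 2 bases before the start in M and 27 bases after it in MR, and the Apoe locus began 7 and 25 bases after it. For Lgals3 the ends differed far more, as described with its values.

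Levels are given in TPM (transcripts per 1000000), which is scaled for transcript length and can be compared between genes, from 3.63 Gb of aligned bases in M and 2.98 Gb in MR. Each ratio of MR to M is on the log2 scale with 1 added to both TPM values. The 10 genes together made up 2.34% of the TPM of M, with a sum of 23399, and 0.994% of that of MR, with a sum of 9935. In MR, 7 of the 10 were lower by more than 1 log2 unit and 0 were higher by that much. Among the 13464 genes tested, which had a locus not shared with a neighbour and reached a TPM of 1 in M or MR, 13.3% were lower and 21.2% higher by that much. Among the 635 genes that reached a TPM of 300, 22.2% were lower and 29.9% higher. The median log2 ratio was -1.22 for the 10 genes and 0.21 for all genes tested. In coverage, another unit of the tables, 5 of the 10 were lower by more than 1 log2 unit and 1 higher, because Lgals3 and Plin2 turned direction. Of the 11399 genes tested in coverage, 1302 were lower and 1899 higher by that much. In bulk RNA, fewer cells of a type and less RNA per cell cannot be told apart. The TPM of 10 macrophage markers summed to 28102 in M and 8308 in MR, of which Lyz2, at a locus shared with a neighbour, made up 16035 and 4535. The 8 of them with a locus not shared summed to 11896 and 3638. The TPM of 10 osteoclast markers summed to 151.7 and 25318, and the part of this change of cell state in the levels of the 10 genes was not tested.

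**Figure D1:**
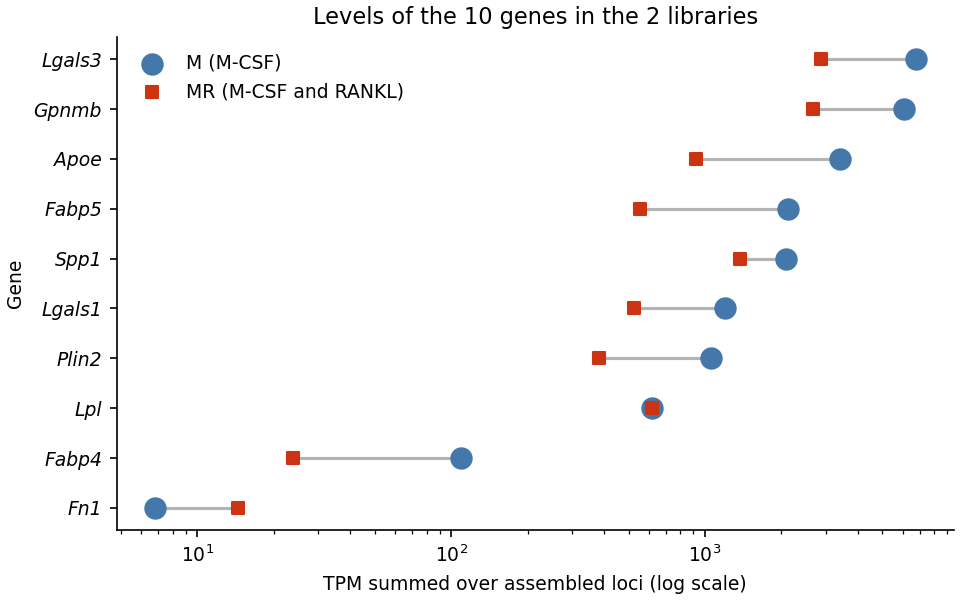
TPM of each gene (log scale) in the M library (circles) and the MR library (squares), joined by a line, with 1 library per condition. In TPM 8 of the 10 genes were lower in MR, Lpl was at the same level, and Fn1 was low in both.

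Spp1, on chromosome 5 from 104435118 to 104441050 (plus strand, GRCm38), stood at 2076 TPM in M and at 1369 TPM in MR. It was thus abundant in both cultures, at rank 39 of 14436 genes in M and rank 101 in MR. The log2 ratio was -0.60, which did not pass 1 log2 unit, and 20.2% of the genes tested had a lower ratio. From FPKM and the shortest principal coding transcript, of 1410 nt, an estimated 16382 read pairs in M and 8520 in MR lie behind these values. Counting error alone gave the log2 ratio a 95% interval of -0.64 to -0.56 (Wilson), and the intervals below are of the same kind. The listed coverage matched the FPKM, at 96.6% of the corresponding value in M and 96.8% in MR. Gm42793, a gene model within Spp1 on the same strand (chromosome 5 from 104435121 to 104436372), holds 14.3% of the stretches of 31 bases of the Spp1 transcripts, and no locus was given to it.

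Gpnmb, on chromosome 6 from 49036546 to 49070929 (plus strand), stood at 6059.6 TPM in M, at rank 11 of all genes, and at 2665 TPM in MR, at rank 31. Its level in MR was 2.27-fold lower, with a log2 ratio of -1.18 (95% counting interval -1.20 to -1.17). The locus ended 13538 bases before the annotated 3′ end of the gene in M and 13532 bases before it in MR, and held 75.4% and 75.5% of the annotated exon bases. Gpnmb still exceeded Spp1 in MR, by TPM of 2665 against 1369.

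The lectin Lgals1, on chromosome 15 from 78926725 to 78930465 (plus strand), stood at 1201 TPM in M and at 524 TPM in MR. Its log2 ratio was -1.19, with a counting interval of -1.27 to -1.12. Its listed coverage was 94.2% and 96.7% of the value that the FPKM corresponds to, so both units gave the same direction.

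For Lgals3, on chromosome 14 from 47367751 to 47386160 (plus strand), the units of the tables did not give the same direction. In TPM it was the most abundant of the 10 genes, with 6759 in M, at rank 7 of all genes, and 2860.2 in MR, and the log2 ratio was -1.24. The listed coverage, in contrast, was 1739.8 for M and 2649.6 for MR. Divided by the aligned gigabases this came to 479 for M and 889 for MR, with a log2 ratio of 0.89. The listed coverage was only 15.3% of the value that the FPKM corresponds to in M and 69.9% in MR. The assembled locus also differed. In M it began at 47367625, 126 bases before the annotated start, and in MR at 47373815, which is 6064 bases after that start and 45 bases before the RefSeq start. Both ended at 47385799. The direction of Lgals3 is therefore not settled by these tables, and the reason why its coverage and FPKM differ was not tested.

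Among the genes of lipid transport, Apoe was lower in MR and Lpl was not. Apoe, on chromosome 7 from 19696109 to 19699188 (minus strand), stood at 3395 TPM in M and at 923 TPM in MR, and its rank went from 19 to 167. The log2 ratio was -1.88 (95% counting interval -1.92 to -1.83), and 4.56% of the genes tested had a lower one. The listed coverage was 100.02% and 100.1% of the value that the FPKM corresponds to.

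Lpl, on chromosome 8 from 68880491 to 68907448 (plus strand), stood at 618.7 TPM in M and at 618.9 TPM in MR. Its log2 ratio was 0.00, with a counting interval of -0.04 to 0.04 from about 14249 and 11244 read pairs. Of the 10 genes it had the smallest difference, which was within counting error, and its rank went from 216 to 249. Under median-of-ratios scaling, which lowers every ratio, its log2 ratio was -0.16.

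Fabp5, the fatty acid carrier of epidermis and macrophages, lies on chromosome 3 from 10012548 to 10016607 (plus strand) and stood at 2114 TPM in M and at 556 TPM in MR. Its log2 ratio was -1.92 (95% counting interval -1.99 to -1.86). Fabp4, the carrier of adipocytes and macrophages, lies on the same chromosome from 10204088 to 10208576 (minus strand) and stood at 109.8 TPM in M and at 23.9 TPM in MR. Its log2 ratio of -2.15 was the lowest of the 10 genes, and the interval of -2.47 to -1.84 was wider because MR held only about 95 read pairs. In M the level of Fabp5 thus stood far above that of Fabp4, and both were lower in MR. Of the stretches of 31 bases in the Fabp5 transcripts, 33.1% occur in 5 other gene models, so part of its reads could be placed elsewhere. Of these, a locus was given to the processed pseudogene Gm6166 alone, with 38.8 TPM in M and 12.3 TPM in MR. Fabp4 shared 0 such stretches with another gene.

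Plin2, on chromosome 4 from 86648386 to 86670060 (minus strand), stood at 1059.6 TPM in M and at 381 TPM in MR, a log2 ratio of -1.47. As for Lgals3, the coverage turned the direction. The tables list a coverage of 118.3 for M and 328 for MR, which per aligned gigabase came to 32.6 and 110.2, with a log2 ratio of 1.73. In M it was 6.65% of the value that the FPKM corresponds to and in MR 65.1%. Of the 7930 loci of M with an FPKM above 5, 2.76% had a coverage under 20% of that value, and 2.54% of 8311 did in MR. A coverage under 80% of it, as for Plin2 and Lgals3 in MR, was listed for 26.7% of these loci in M and 25.7% in MR. The Plin2 locus of M ran 21531 bases past the annotated 3′ end and that of MR 701 bases past it. The locus of M thereby took in Gm12551, an unprocessed pseudogene from 86627075 to 86631251 that holds 7.56% of the stretches of 31 bases of the Plin2 transcripts, and that of MR did not. The direction of Plin2 is thus not settled either.

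Fn1, on chromosome 1 from 71585520 to 71653200 (minus strand), was low in both cultures and was assembled in more pieces in MR than in M. The summed TPM was 6.79 in M, over 2 loci, and 14.5 in MR, over 5 loci, with a log2 ratio of 1.00 that lay just inside the threshold. When the TPM of the loci were averaged by their exon bases instead, which was added after seeing the data, the level was 3.44 in M and 3.88 in MR and the log2 ratio 0.14. The longest locus alone gave 0.35, and coverage per aligned gigabase gave -0.23. From the exon-weighted level, about 160 read pairs lie behind Fn1 in M and 143 in MR. With these pair numbers the counting interval around the summed log2 ratio was 0.67 to 1.32, which does not cover the unequal number of loci. The direction of Fn1 is thus not settled. Each way to combine the TPM of its loci gave a ratio above 0, of unlike size, and the sign changed in coverage.

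**Figure D2:**
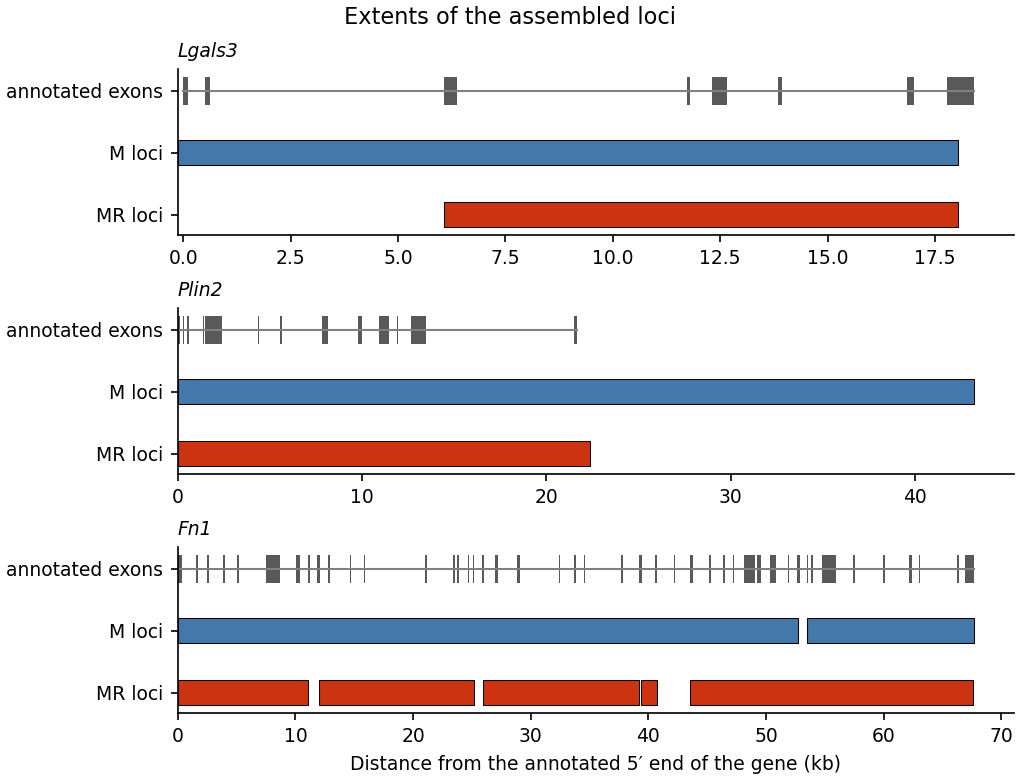
Extents of the loci assembled for Lgals3, Plin2 and Fn1 in M (blue) and MR (red), beside the annotated exons (grey), as distance in kb from the annotated 5′ end of each gene. The Lgals3 locus of M begins 126 bases before the annotated start and that of MR 6064 bases after it, the Plin2 locus of M is the longer one at the 3′ end, and Fn1 is in 2 pieces in M and 5 in MR.

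**Figure D3:**
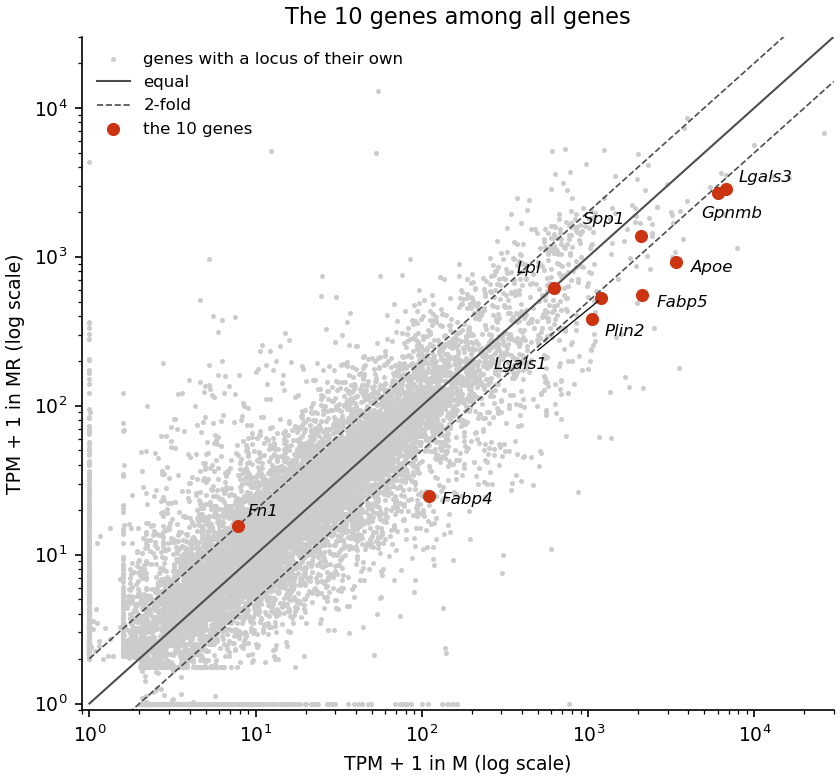
TPM + 1 in MR against TPM + 1 in M (both axes log) for genes with a locus of their own (grey) and the 10 genes (red), with lines for equal levels and for 2-fold differences. Apoe, Fabp5 and Fabp4 lie furthest below the lower line, with log2 ratios of -1.88, -1.92 and -2.15.

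**Figure D4:**
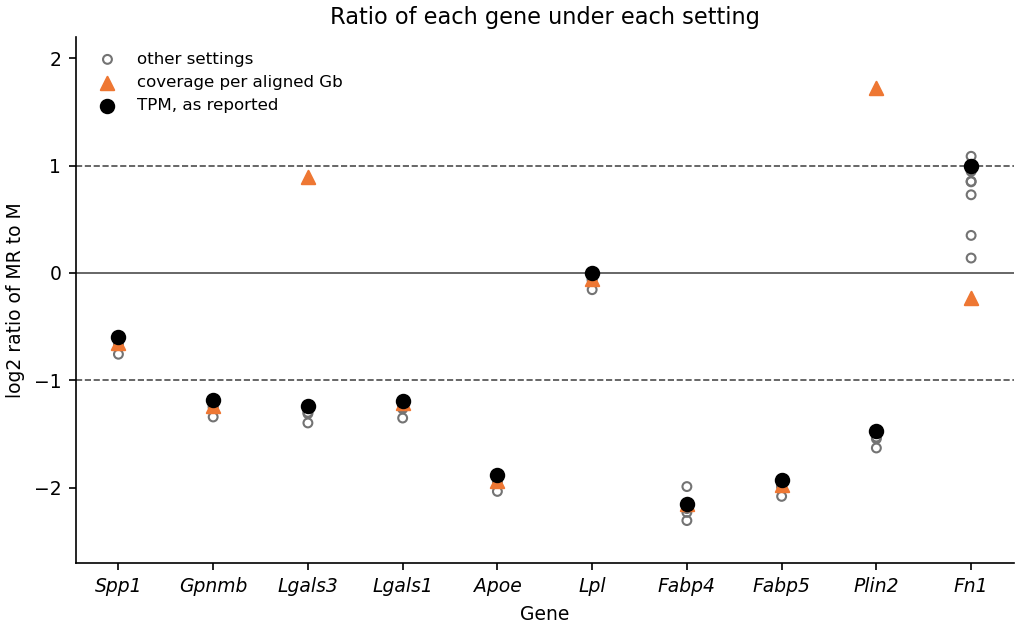
Log2 ratio of MR to M for each gene from TPM as reported (black), from coverage per aligned gigabase (triangles) and under the other settings tried (open circles), with dashed lines at 1 and -1. Spp1, Gpnmb, Lgals1, Apoe, Fabp4 and Fabp5 stay below 0 under each setting drawn, whereas Lgals3 and Plin2 rise to 0.89 and 1.73 in coverage.

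The close relatives of these genes were mostly not assembled. The 23 relatives were other galectins, fatty acid binding proteins, perilipins, lipases, the bone matrix proteins of the osteopontin family and Pmel. Of these, 9 reached a TPM of 1, with a median of -0.11. Among the 9, 3 were lower and 0 higher by more than 1 log2 unit, beside 13.3% and 21.2% over all genes tested. Fabp3, the carrier of heart muscle, stood at 392 TPM in M and at 30.0 TPM in MR (log2 ratio -3.67), while Fabp7 had 26.9 and 29.8. Lgals9, galectin-9, had 839 and 323 (log2 ratio -1.38). Plin4 had 81.1 in M from a locus shared with a neighbour, and no locus in MR. Plin3, which also coats lipid droplets, had 107.4 and 177 (0.71) and did not pass the threshold. No locus was given to Ibsp, Dmp1, Dspp or Mepe, the bone matrix relatives of osteopontin, in either library.

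Of 10 receptor genes for osteopontin, fibronectin and Gpnmb, 4 were higher and 1 was lower by more than 1 log2 unit, beside 21.2% higher and 13.3% lower over all genes tested, with a median of 0.16. The same counts of 4 and 1 held under median-of-ratios scaling, exon-weighted means and coverage together. The share of all genes that passed these settings together was not computed, here or for the lists below. Itgav and Itgb3, whose products form the αvβ3 integrin of osteoclasts, went from a TPM of 34.5 to 184.9 (log2 ratio 2.39) and from 5.56 to 157.7 (4.60). Itgb5, an alternative partner of αv, went from 109.2 to 38.6 (-1.48). The syndecans Sdc1 and Sdc4, cell surface proteoglycans, went from 4.97 to 159.7 (4.75) and from 18.4 to 75.7 (1.99). In coverage the log2 ratio of Sdc1 was smaller, at 1.80. Cd44, a hyaluronan receptor that also binds osteopontin, had 149 and 160.2, Itgb1 had 309.5 and 254, Itga5 103.9 and 120.8, Itga4 53.1 and 56.4, and Itga9 6.75 and 7.27. None of these last 5 passed the threshold.

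Genes that mark lipid-associated macrophages were mixed. Of 13 such genes, 6 were lower and 1 was higher by more than 1 log2 unit, beside 13.3% lower and 21.2% higher over all genes tested. The median of the 13 was -0.44. The same 6 and 1 passed under the 3 other settings named above. Trem2, a lipid receptor that sets off this program in macrophages, stood at 817 TPM in M and at 139.8 TPM in MR (log2 ratio -2.54, and -1.73 in coverage). Its signalling adaptor Tyrobp, which osteoclast receptors also use, had 2049 and 1692 (-0.28). Cd36, a scavenger receptor for fatty acids and oxidised lipoproteins, had 513 and 49.0 (-3.36). Ctsb, a lysosomal cathepsin and the most abundant of these genes, had 16083 and 3369 (-2.25). The tetraspanin Cd9 was the one that was higher, at 114.4 and 347 (1.59).

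Of 25 genes of fatty acid uptake, storage and lipolysis, 23 had a value, of which 6 were higher and 3 lower by more than 1 log2 unit, with a median of 0.47. These shares were near those over all genes tested, of 21.2% higher and 13.3% lower. Under the 4 settings together 3 were higher and 3 lower. Pnpla2, the lipase that opens the breakdown of stored triglyceride, went from 79.1 to 178.6 (log2 ratio 1.17), and Hilpda, an inhibitor of that lipase, from 8.58 to 23.3 (1.34). The lower genes were Cd36, given above with a log2 ratio of -3.36, Lipa and Lpin2. Lipa, the lysosomal acid lipase and the most abundant in M, went from 1092 to 271 (-2.01), and Lpin2, an enzyme of triglyceride synthesis, from 28.2 to 8.97 (-1.55). Cd36 and Lipa are also counted among the lipid-associated macrophage genes. The enzymes that complete triglycerides did not pass the threshold, with 11.8 and 17.0 for Dgat1 and 2.29 and 3.56 for Dgat2.

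Of 11 lipoprotein and sterol partners, 3 were higher and 3 lower by more than 1 log2 unit, beside 21.2% and 13.3% over all genes tested. The median of the list was -0.58, and under the 4 settings together 2 were higher and 2 lower. Pltp, which transfers phospholipid between lipoproteins, went from 83.5 to 278 (1.72). The scavenger receptor Msr1 went from 181.4 to 52.4 (-1.77), and Apoc2, the activator of lipoprotein lipase, from 29.4 to 9.10 (-1.59) at a locus shared with a neighbour. Lrp8, an Apoe receptor, had 2.31 over 1 locus and 10.3 over 3 loci (1.77), and its log2 ratio in coverage was -0.09. Lrp1, the most abundant receptor here, had 250.4 and 138.5 (-0.85).

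Of 12 transcription factors that sense lipid or belong to the MITF and TFE family, 11 had a value. Of these, 3 were higher and 2 lower by more than 1 log2 unit, beside 21.2% and 13.3% over all genes tested. The median of the list was -0.10, and under the 4 settings together 1 was higher and 2 lower. Pparg, the fatty acid receptor that activates Fabp4, Plin2 and Cd36 in many cells, went from 39.6 to 9.67 (-1.93, and -1.07 in coverage). Its partner Rxra went from 42.0 to 12.5 (-1.67). Rxrb went from 31.8 to 90.6 (1.48). Ppara, with no locus in M, had 3.82 over 3 loci in MR, and Tfec had 20.7 and 44.1 (1.05). Mitf, a regulator of Gpnmb in pigment cells and osteoclasts, had 30.5 and 39.9 (0.38). Its part in the level of Gpnmb was not tested. Tfeb (31.4 and 27.0), Tfe3 (64.7 and 44.9), Ppard (16.3 and 13.3), Nr1h2 (75.0 and 70.1) and Srebf1 (31.6 and 45.4) did not pass the threshold in TPM. The coverage of Tfeb gave a log2 ratio of 2.23, against -0.21 in TPM.

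**Figure D5:**
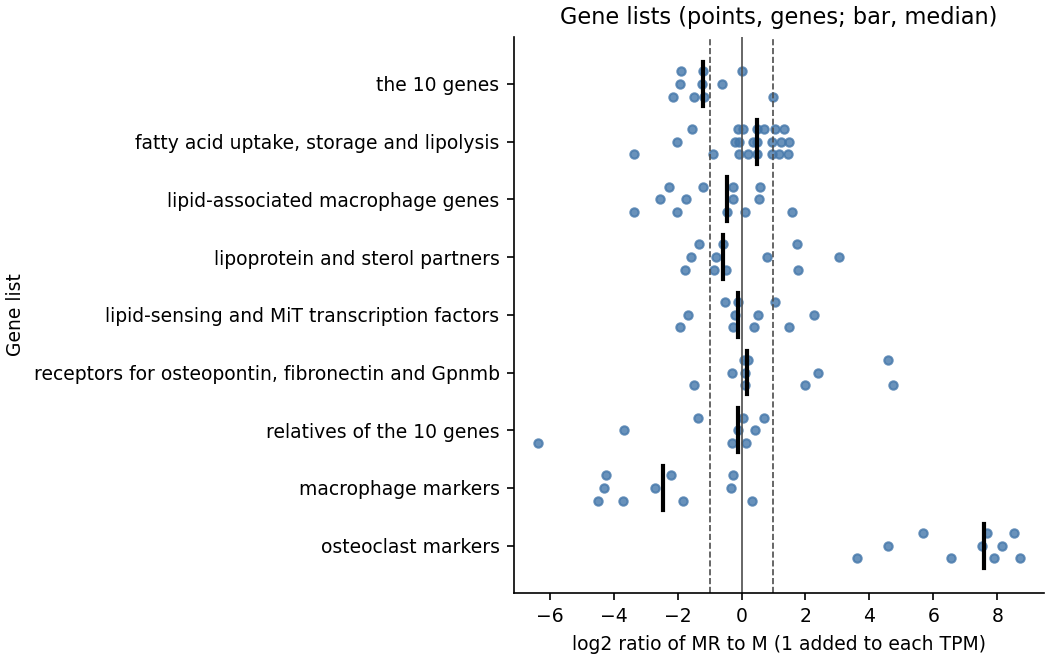
Log2 ratio of MR to M in TPM for the genes of each list with a TPM of at least 1 in either library (points), with the median of each list (bar) and dashed lines at 1 and -1. The medians are -1.22 for the 10 genes, -2.45 for macrophage markers and 7.60 for osteoclast markers, and the lipid lists lie on both sides of 0.

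Macrophage markers were mostly lower in MR, as most of the 10 genes were in TPM, and osteoclast markers were higher. Of 10 macrophage markers 7 were lower by more than 1 log2 unit (6 of the 8 at loci not shared) and 0 higher, with a median of -2.45. Over all genes tested, 13.3% were lower and 21.2% higher by that much. The complement genes C1qa, C1qb and C1qc, made by tissue macrophages, were lower by log2 ratios of -4.49, -4.30 and -3.72, while the M-CSF receptor Csf1r had 697 and 872. All 10 osteoclast markers were higher, with a median of 7.60. In M 4 of them, Dcstamp, Ocstamp, Calcr and Oscar, had no locus. The 7 neutrophil markers summed to 1362 and 950.0, with 0 past the threshold. Of 7 adipocyte markers, Adipoq, Lep, Plin1, Cidec, Retn and Cfd had no locus in either library. The stromal and osteoblast markers summed to 23.5 and 38.7, with no locus for Bglap, Sp7 or Ibsp, and the endothelial markers summed to 60.2 and 79.9. The labels name both samples as bone marrow cells, and the macrophage marker Cd68 was high in both, at 2607 and 2171 TPM.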

How the data were processed

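RNA of wild-type bone marrow cells was measured in 2 libraries, M and MR, sequenced as paired reads of 150 bases. The authors removed adaptors with Trim Galore, mapped to mm10 with HISAT2 and ran StringTie with the GENCODE vM27 annotation, in versions not given in the sources used here. Per the file headers each entry holds coverage (mean read depth per base, not scaled for library size), FPKM and TPM. The deposited TPM sum to 1000000 over assembled loci alone. Entries with gene names carry GRCm39 positions and were not used for the main values. An assembled locus went to the GENCODE vM21 (GRCm38) gene of a compatible strand that had the largest number of exon bases inside it, with a minimum of 50. This placed 15665 loci of M (95.4% of its TPM) and 16523 of MR (96.9%). TPM were summed per gene. Where a second protein-coding gene had 50% of its exon bases in a locus, the locus was called shared (341 genes), and 392 genes inside the locus of another gene got no value. A gene without a locus was set to 0.

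Aligned bases were taken from the commonest coverage to FPKM quotient among entries and were 3.63 Gb in M and 2.98 Gb in MR. Read pairs were estimated as FPKM times aligned bases times transcript length, at 300 bases a pair. Read counts are not listed, so counting intervals are approximate. No p-value was computed with 1 library per condition. A gene was counted as past the threshold at an absolute log2 ratio above 1, among genes that reached a TPM of 1 in M or MR. The 10 genes, the lists and the tests were chosen with earlier results of these data known. Some genes, such as Cd36, Lipa, Plin3, Cd68 and Itgb3, stand in more than 1 list, so the lists are not independent. All 10 genes are named, and of each other list the most abundant gene and up to 3 rises and 3 falls past the threshold with a TPM of at least 10, while receptors and transcription factors may all be named. A few further genes (Fabp7, Plin3, Tyrobp, Dgat1, Dgat2 and marker genes) were named after their values were seen. Stretches of 31 bases were compared over the GENCODE vM21 transcripts. Alternatives were other pseudocounts, filters and thresholds, FPKM, other scalings, other ways to combine loci and coverage. The assignment was tested on simulated data, with 1 locus per gene and ends close to the annotated ones. Split loci and loci with far-off ends, as for Fn1, Plin2 and Lgals3, were not simulated. Values were computed in Python 3.11.15 (pandas 2.3.3, numpy 2.4.6, scipy 1.17.1) and drawn with matplotlib 3.10.9.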

Additional observations from a re-analysis of the deposited data

Results flagged for a closer look

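An entry with the name Csgalnact1, on the strand opposite to Lpl, is listed with GRCm39 positions that overlap the GRCm38 positions of Lpl. Because the builds differ, this does not place the entry over the Lpl gene. The entry was singled out because it is not used in any comparison and was higher in MR, with a TPM of 1.02, than in M, with 0.273. Its listed coverage in MR was 1.35.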

How the results depend on the processing

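Of 99 values of the 10 genes under other settings, 70 differed from the reported value by no more than counting error, 27 by more, and 2 were reversed. Many of the 70 could not differ. Every gene but Fn1 had 1 locus in each library, so the other ways to combine loci returned its reported value. Adding entries with gene names changed Gpnmb, Lgals1 and Fn1 alone. These entries were matched by GRCm39 positions to GRCm38 exons, which added an entry named Malsu1 to Gpnmb and an entry named Galr3 to Lgals1. Because it mixes builds, this setting cannot test the ratios. The count of 70 is therefore not a measure of robustness. Lpl was below 0 under each of its shifted values, and Fn1 in coverage. The 2 reversals came with coverage per aligned gigabase, at 0.89 for Lgals3 and 1.73 for Plin2, and this setting and exon-weighted means were chosen after the data were seen. In coverage the log2 ratios were also -0.66 for Spp1, -1.24 for Gpnmb, -1.93 for Apoe, -0.057 for Lpl and -0.23 for Fn1, and 1 gene, Plin2, was higher past the threshold. Median-of-ratios scaling lowered the median over all genes from 0.21 to 0.06. It gave -0.76 for Spp1, -1.34 for Gpnmb, -1.40 for Lgals3, -1.35 for Lgals1, -2.03 for Apoe, -0.16 for Lpl, -2.08 for Fabp5 and -1.63 for Plin2. The share of higher genes among all past the threshold was 61.6%, and 54.5% under this scaling. Leaving mitochondrial genes and the top 20 genes by abundance out of the TPM total, the ratios were -0.67 for Spp1, -1.25 for Gpnmb, -1.31 for Lgals3, -1.95 for Apoe, -0.069 for Lpl, -1.99 for Fabp5 and -1.54 for Plin2. FPKM gave -0.66 for Spp1, -1.24 for Gpnmb, -1.30 for Lgals3, -1.93 for Apoe and -0.057 for Lpl. Fn1 was 0.35 from its longest locus and 0.14 with exon-weighted means. With a pseudocount of 0.1 it passed the threshold, so that 1 of the 10 genes was higher. Over loci with at least 50% of the exon bases 8 of the 10 genes were lower, because no Fn1 locus of MR reached that share and Fn1 counted as 0 there, so that no ratio is given for it. At a threshold of 2 log2 units 1 of the 10 genes, Fabp4, was lower. Over all genes the counts of 2860 higher and 1784 lower became 1601 and 983 at a TPM of at least 10, 958 and 521 at that threshold of 2, 1512 and 881 with a pseudocount of 5, and 1899 and 1302 in coverage. Of 132 list medians 1 moved, that of the endothelial markers, to -1.53 over loci with at least 50% of the exon bases. The cause of these shifts was not tested. No paired analysis was possible because each condition has 1 library, and for the same reason no library could be left out.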

Other observations

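Loci on the minus strand, opposite to Gpnmb and given to no gene, held Gpnmb exon bases in both libraries. A locus with 601 of these bases stood at 98.6 TPM in M and at 86.3 TPM in MR, and a locus with 813 of them had 42.2 in M and 21.9 in MR. An entry with the name Gm7890 is listed with the values of the first of these loci. Opposite to Fn1, a locus with 1183 of its exon bases had 0.285 in M and 0.476 in MR. From which strand these reads came cannot be told apart.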
